A study of Homo sapiens with 12 samples.

Results

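The genes described here serve the unfolded protein response of the endoplasmic reticulum (ER). They are 35 genes named by function, with no threshold on their values, and were found by symbol among the 48162 Ensembl gene identifiers of the count table. The list was drawn up with earlier results of these data known. All 35 were found and all 35 passed the filter on low counts. They comprise 7 stress sensors and transcription factors, 11 chaperones and co-chaperones, 5 enzymes of disulfide bond formation, 11 genes of ER-associated degradation and the translocon subunit SEC61B. The cells were T84, a line from a human colon carcinoma whose cells form a polarised epithelial layer, so every value comes from 1 line. Confluent cultures were moved from medium into Hanks buffered saline, at pH 7.4 for the controls and at pH 6.0 for the acid-exposed cells, and RNA was taken after 3 h or 6 h. That gave 4 groups of 3 libraries. All groups, controls included, were in saline, so that the effect of the saline itself was not measured. Separate cultures are not stated for the libraries of a group, and p-values therefore measure only how these libraries vary, which may be technical variation.

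The lumen of the ER is where secreted and membrane proteins fold. Unfolded protein there is sensed by the membrane proteins IRE1 (gene ERN1), PERK (EIF2AK3) and ATF6. IRE1 splices the XBP1 mRNA, PERK slows translation and favours that of ATF4, and ATF6 is cut in the Golgi to free a transcription factor. Their known outputs are more chaperones and folding enzymes, and the machinery that draws misfolded proteins back into the cytosol for degradation. The intestinal epithelium secretes heavily and relies on this system, and it carries a second IRE1 gene, ERN2, of its own.

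Libraries held 13912532 to 24331032 counts, and 32 of the 35 members had at least 200 counts in every library. ERO1B and DERL3 were the members with under 20 counts in some library. All 11 intestinal epithelial markers examined were detected, at a summed 8836 to 11751 CPM per library (CPM being counts scaled to library size). The 11 fibroblast markers summed to 8.15 to 11.9 CPM in 11 libraries and to 33.6 CPM in replicate 2 of pH 7.4 at 6 h. The leukocyte markers summed to 8.69 to 12.8 CPM, most of it LYZ and with the B-cell gene MS4A1 at 0 in every library, and the endothelial markers to 9.55 to 13.7 CPM, most of it ESAM. The part of the fibroblast markers in the results was not tested, but calls of members that change without that replicate are given below. Exons of 19 members overlap those of another annotated gene, 15 of them only on the opposite strand, and whether the counting used strand is not given, so reads of the overlapping genes may be mixed. The 19 members are EIF2AK3, ATF6B, CREB3, HSP90B1, HYOU1, CALR, CANX, DNAJB9, DNAJB11, CRELD2, PDIA3, PDIA6, P4HB, SYVN1, EDEM1, DERL1, DERL2, DERL3 and OS9.

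The members spanned a wide range of abundance. Per length, in RPKM (reads scaled to gene length and library size), the group means at pH 7.4 and 3 h were highest for HSP90B1 at 588, CALR at 450.1, CANX at 325 and HSPA5 at 237, all abundant chaperones of the lumen or membrane. The disulfide isomerases PDIA4, PDIA3, P4HB and PDIA6 followed at 125 to 150.1 RPKM. The sensor ERN1 stood at 5.27 RPKM, and DERL3 and ERO1B were the lowest at 0.751 and 0.123 RPKM. The summed level of all members was 8251 ± 236 CPM at pH 7.4 and 8804 ± 199 CPM at pH 6.0 after 3 h. After 6 h it was 7973 ± 108 CPM at pH 7.4 and 10678 ± 585 CPM at pH 6.0 (SD, n = 3 each). The libraries of pH 6.0 at 6 h held 10020 to 11137 CPM, above all the others, and chaperones made up 7227 of the mean of 10678 CPM.

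At 6 h the folding genes were higher at pH 6.0 than at pH 7.4, while 8 of 11 degradation genes did not pass the test. Of the 35 members, 17 were higher, 4 lower and 14 did not pass, where a gene passed if its Benjamini-Hochberg adjusted p in edgeR's quasi-likelihood test was under 0.05. Over all 15630 genes tested 47% passed, 21.9% higher and 25.1% lower, whereas 48.6% of the members were higher. That share describes a list chosen with earlier results of these data known and is no test. The median log2 fold change was 0.30 over the members and -0.00 over all genes tested. By role, 9 of 11 chaperones, 4 of 5 disulfide enzymes, 1 of 11 degradation genes and 2 of 7 sensors or factors were higher. None of the chaperones or disulfide enzymes, 2 degradation genes and 2 sensors were lower. After a correction for gene length 22 members were higher and 4 lower, with 10 of the chaperones, 4 disulfide enzymes and 4 degradation genes higher. Other values differed between the same groups. The summed epithelial markers were at 8836 to 9024 CPM at pH 7.4 and 10954 to 11751 CPM at pH 6.0, and 6 of 11 were higher and 2 lower. The leukocyte markers summed to 8.88 to 10.2 CPM against 11.7 to 12.8 CPM, with LYZ higher (log2 0.51 ± 0.17, adjusted p = 0.0155), and mitochondrial genes took 7.97% to 8.97% against 7.14% to 7.40% of counts. The part of these in the result was not tested. In bulk RNA, fewer cells expressing a gene and less RNA per cell cannot be told apart. Below, the value after ± is a standard error (SE) for a log2 fold change and an SD for a level.

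**Figure D1:**
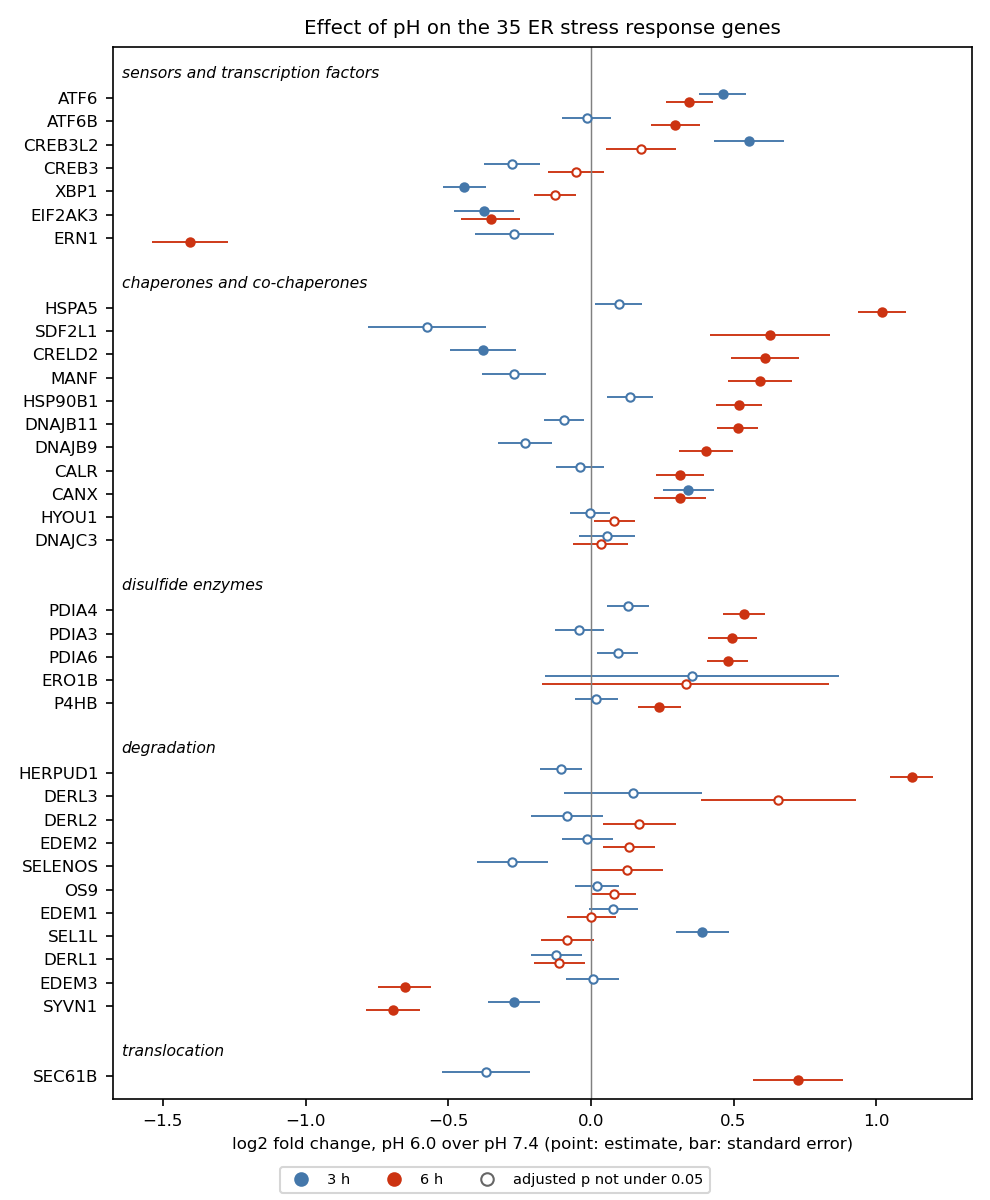
Log2 fold change of each of the 35 members for pH 6.0 against pH 7.4 at 3 h and at 6 h, with bars of 1 SE, grouped by role; filled points passed an adjusted p of 0.05. At 6 h HERPUD1 (1.12) and HSPA5 (1.02) lie highest and ERN1 (-1.41) lowest, and the chaperones and disulfide enzymes all lie at or above 0.

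HERPUD1, an ER membrane protein that organises the degradation complex, had the highest fold change among the members. Its level was 102, 113 and 97.4 CPM at pH 7.4 and 218, 229 and 235 CPM at pH 6.0, a 2.18-fold difference (log2 1.12 ± 0.07, adjusted p = 5.43e-11). All libraries at pH 6.0 were above all at pH 7.4. How many of all genes tested were separate in this way was not counted. Separation, here and below, therefore only describes the libraries of the gene named. HSPA5, which encodes BiP, the main lumenal HSP70 and the partner that holds the sensors inactive, stood at 776, 773 and 804 CPM at pH 7.4. At pH 6.0 it reached 1527, 1470.2 and 1773 CPM, 2.03-fold higher (log2 1.02 ± 0.08, adjusted p = 1.84e-09). Again the 2 groups did not overlap.

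**Figure D2:**
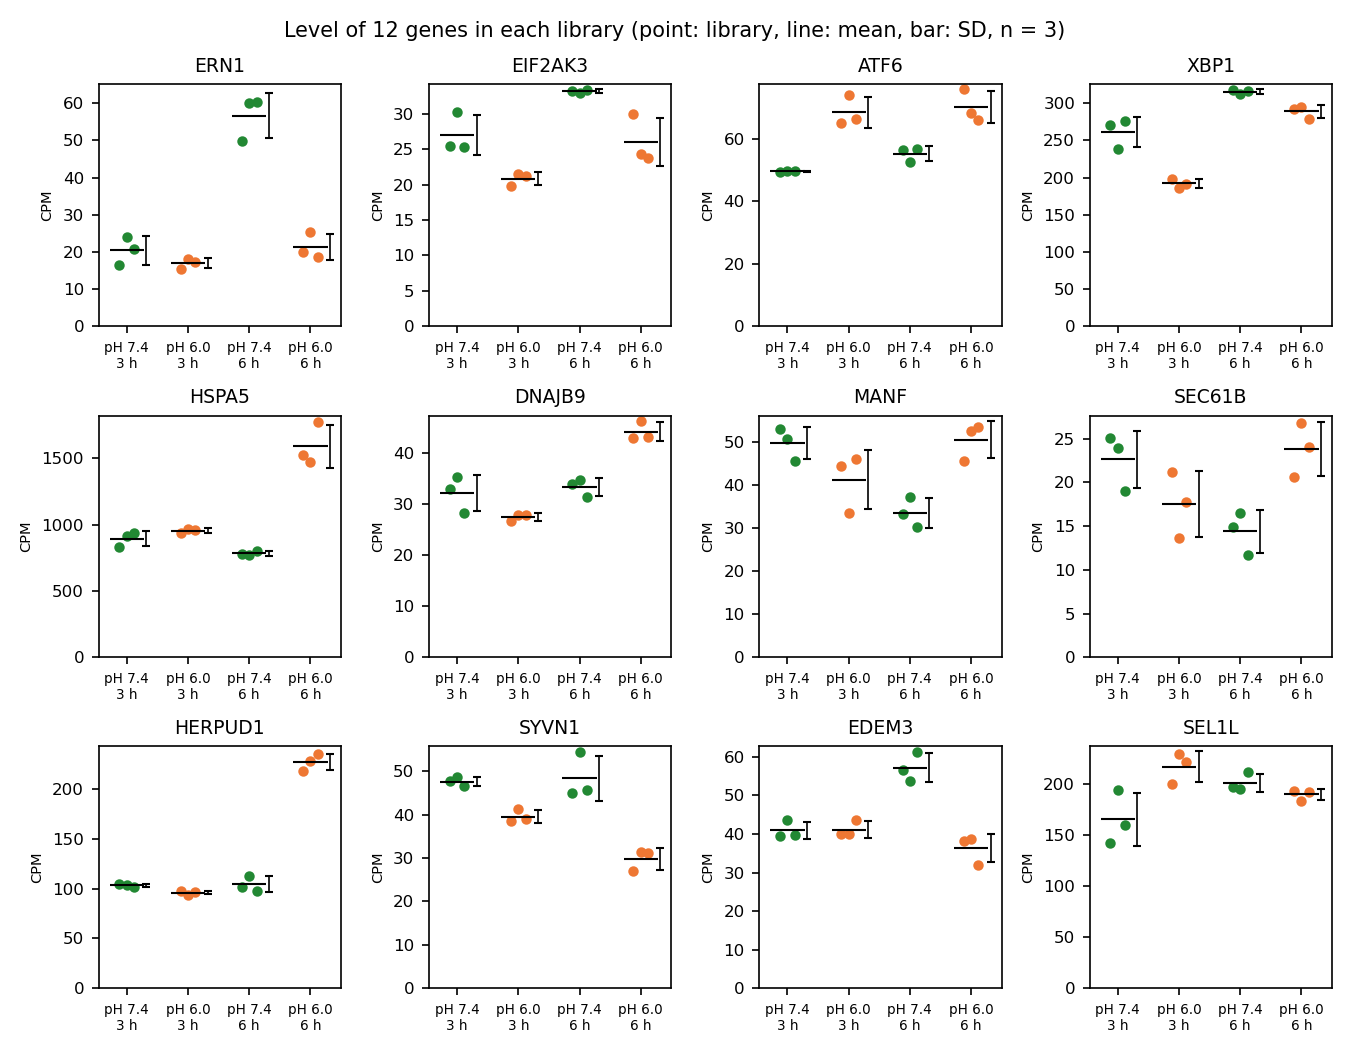
CPM in each of the 12 libraries for selected members, by pH and time, with a line at each group mean and a bar of 1 SD; each panel has its own axis, starting at 0. HSPA5 and HERPUD1 are high in the 3 libraries of pH 6.0 at 6 h, and ERN1 in the 3 libraries of pH 7.4 at 6 h (49.8 to 60.3 CPM).

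Other chaperones were higher at 6 h by smaller amounts. DNAJB11, a BiP co-chaperone, was at 106, 101 and 101 CPM at pH 7.4 and 152, 145 and 145 CPM at pH 6.0 (log2 0.51 ± 0.07, adjusted p = 3.39e-06). HSP90B1, the lumenal HSP90, was at 1606, 1559.7 and 1577 CPM against 2332, 2068 and 2391 CPM (log2 0.52 ± 0.08, adjusted p = 1.63e-05). Neither pair of groups overlapped. MANF, a secreted protein that binds BiP, was at 33.1, 37.1 and 30.1 CPM against 45.5, 52.4 and 53.5 CPM (log2 0.59 ± 0.11, adjusted p = 0.000175). CRELD2, another small secreted ER protein, was at 15.8, 17.2 and 13.4 CPM against 22.1, 24.1 and 24.7 CPM (log2 0.61 ± 0.12, adjusted p = 0.000219). DNAJB9, a co-chaperone that feeds substrates to BiP and restrains IRE1, was at 34.0, 34.8 and 31.5 CPM against 43.0, 46.4 and 43.2 CPM (log2 0.40 ± 0.09, adjusted p = 0.00122). These 3 genes were likewise separate between the pH groups. The lectin chaperone CALR was at 720.0, 698 and 719.7 CPM against 903, 787 and 967 CPM (log2 0.31 ± 0.08, adjusted p = 0.00359), and its membrane-bound relative CANX had a log2 fold change of 0.31 ± 0.09 (adjusted p = 0.00698). SDF2L1, a subunit of BiP complexes, was at 19.7, 27.3 and 19.9 CPM against 32.2, 42.3 and 28.9 CPM (log2 0.63 ± 0.21, adjusted p = 0.0263). The SDF2L1 call was the least stable of these. Its adjusted p was 0.054 without replicate 2 of pH 7.4 at 3 h, 0.0984 and 0.0957 without replicates 1 and 3 of pH 7.4 at 6 h, 0.0986 without replicate 2 of pH 6.0 at 6 h and 0.12 after correction for gene length. HYOU1 (log2 0.08 ± 0.07) and DNAJC3 (0.03 ± 0.10) were the 2 chaperones that did not pass, although both passed after the length correction (log2 0.21 and 0.23, adjusted p = 0.00719 and 0.0208).

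The protein disulfide isomerases, which form and rearrange disulfide bonds in the ER, moved in the same direction. PDIA4 was at 360.3, 350.0 and 374 CPM at pH 7.4 and 544, 504 and 525 CPM at pH 6.0 (log2 0.54 ± 0.07, adjusted p = 3.02e-06). PDIA6 was at 289.9, 292 and 269.6 CPM against 399, 385 and 404 CPM (log2 0.48 ± 0.07, adjusted p = 1.15e-05). PDIA3 was at 431, 415 and 384 CPM against 580.0, 553 and 602 CPM (log2 0.50 ± 0.09, adjusted p = 5.54e-05). In each of these 3 genes every library at pH 6.0 lay above every library at pH 7.4. P4HB, the canonical isomerase, was at 325, 298 and 323 CPM against 373, 376 and 367 CPM (log2 0.24 ± 0.08, adjusted p = 0.0127), and did not pass without replicate 2 of pH 7.4 at 6 h (adjusted p = 0.0614). The oxidase gene ERO1B, at under 2 CPM in every library, had a log2 fold change of 0.33 ± 0.50 that its depth could not tell from 0. SEC61B, the small subunit of the channel through which proteins enter the ER, was at 14.9, 16.5 and 11.7 CPM against 20.7, 26.7 and 24.1 CPM (log2 0.73 ± 0.16, adjusted p = 0.000796).

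Of the degradation genes, HERPUD1 passed as higher at 6 h. With the length correction SEL1L, EDEM1 and DERL3 did so too, which made 4 of 11. SYVN1, the ubiquitin ligase of the complex, also called HRD1, was lower, at 44.9, 54.3 and 45.7 CPM against 26.9, 31.4 and 31.3 CPM (log2 -0.69 ± 0.09, adjusted p = 3.08e-06). EDEM3, a mannosidase that marks glycoproteins for disposal, was at 56.6, 53.8 and 61.2 CPM against 38.2, 38.7 and 32.1 CPM (log2 -0.65 ± 0.09, adjusted p = 5.46e-06). Both were separate between the groups. SEL1L, the adaptor that binds SYVN1, was at 197, 195 and 212 CPM against 194, 184 and 193 CPM (log2 -0.08 ± 0.09, adjusted p = 0.487). With the length correction its sign turned and it passed (log2 0.19, adjusted p = 0.0185). DERL3, a channel subunit, was at 0.930, 1.93 and 1.34 CPM against 1.97, 2.07 and 2.66 CPM (log2 0.66 ± 0.27, adjusted p = 0.0507). At these few counts its call moved with the setting. It passed with median-of-ratios factors (0.0478), with the length correction (0.0377) and without replicate 2 of pH 7.4 at 6 h (log2 0.98, adjusted p = 0.0126). It also passed, at 0.0477, 0.0459 and 0.0435, without replicate 3 of pH 7.4 at 3 h, replicate 1 of pH 6.0 at 3 h and replicate 1 of pH 6.0 at 6 h. The mannosidase-like EDEM1 and EDEM2, the channel subunits DERL1 and DERL2, the selenoprotein SELENOS and the lectin OS9 had log2 fold changes of -0.11 to 0.17 and passed in none of the 5 comparisons as fitted. EDEM1 passed at 6 h with the length correction (log2 0.22, adjusted p = 0.0253). SELENOS passed with no filter for pH at 3 h (log2 -0.31, adjusted p = 0.0189), for time at pH 6.0 (0.31, 0.0226) and for the interaction (0.44, 0.0128). It passed in the same 3 comparisons without replicate 1 of pH 6.0 at 3 h (adjusted p = 0.00954, 0.00522 and 0.00463), for the interaction without replicate 3 of pH 7.4 at 3 h (0.0423), and for time at pH 6.0 with the length correction (0.042).

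The sensors and factors did not move together at 6 h. ERN1 was at 49.8, 60.0 and 60.3 CPM at pH 7.4 and at 19.9, 25.3 and 18.6 CPM at pH 6.0, 2.65-fold lower (log2 -1.41 ± 0.13, adjusted p = 2.29e-08). EIF2AK3 was at 33.3, 32.9 and 33.4 CPM against 30.0, 24.4 and 23.8 CPM (log2 -0.35 ± 0.10, adjusted p = 0.00844). The EIF2AK3 call was lost without replicate 2 or 3 of pH 6.0 at 6 h (adjusted p = 0.0722 and 0.0772) and with the length correction (0.0743). ATF6 was higher, at 56.6, 52.5 and 56.8 CPM against 76.2, 68.5 and 66.1 CPM (log2 0.35 ± 0.08, adjusted p = 0.00161). Its paralogue ATF6B was at 84.2, 82.1 and 88.2 CPM against 97.0, 96.0 and 119.7 CPM (log2 0.30 ± 0.09, adjusted p = 0.00685). In these 4 genes no library of 1 pH lay within the range of the other. The same held for XBP1, SEL1L, EDEM2 and DERL3, none of which passed as fitted. XBP1, counted without regard to splicing, was at 318, 312 and 317 CPM against 293, 295 and 279 CPM (log2 -0.13 ± 0.07, adjusted p = 0.169), and passed as lower with the length correction (log2 -0.18, adjusted p = 0.0228). The ER-bound factors CREB3 and CREB3L2 overlapped between the pH groups and did not pass. CREB3 was at 43.3, 41.1 and 37.2 CPM against 38.7, 40.5 and 38.1 CPM (log2 -0.05 ± 0.10), and CREB3L2 at 33.0, 35.6 and 44.3 CPM against 39.8, 43.8 and 43.7 CPM (log2 0.17 ± 0.12). CREB3L2 passed as higher with the length correction (log2 0.44, adjusted p = 0.00057).

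Promoter sequence was examined because the ER stress elements are short known motifs that ATF6 and XBP1 bind. RefSeq sequence on GRCh38.p14, 250 bases upstream of the annotated start, was at hand for 32 of the 35 members. The bases just after the start were found in an annotated transcript of the gene for 27 of these 32. The authors' reads were mapped to another build, and the start used in T84 cells is not known. The ER stress element ERSE was searched on both strands as CCAAT and CCACG with any 9 bases between them and lay in 7 members and in 0.074% of all 35116 RefSeq promoters of that length. ERSE-II, searched as ATTGG and CCACG with any 1 base between, lay in 3 members and in 0.0513% of all, and the XBP1 element UPRE, searched as TGACGTGG, in 1 member (HYOU1, where it overlaps an ERSE-II) and in 0.612% of all. The other 2 motifs searched were the cyclic AMP element TGACGTCA (CREB3L2 alone, 1.65% of all) and the C/EBP-ATF element TGATGCAA (HERPUD1 alone, 0.772% of all). Shown 5′ to 3′ on the gene's own strand, each ending at the base before the start, are HERPUD1 (chr16:56931892-56932141, plus strand), HSPA5 (chr9:125241344-125241593, minus strand), HSP90B1 (chr12:103930160-103930409, plus strand), CRELD2 (chr22:49918384-49918633, plus strand), CALR (chr19:12938359-12938608, plus strand) and CANX (chr5:179698679-179698928, plus strand). They are the members with the smallest p for pH at 6 h among those with an ERSE, ERSE-II or UPRE. SDF2L1, also higher and with an ERSE-II, had a larger p and is not shown. Capitals mark the ERSE-II in HERPUD1 and the ERSE in the others, and begin with CGTGG where the motif lies on the opposite strand.
HERPUD1: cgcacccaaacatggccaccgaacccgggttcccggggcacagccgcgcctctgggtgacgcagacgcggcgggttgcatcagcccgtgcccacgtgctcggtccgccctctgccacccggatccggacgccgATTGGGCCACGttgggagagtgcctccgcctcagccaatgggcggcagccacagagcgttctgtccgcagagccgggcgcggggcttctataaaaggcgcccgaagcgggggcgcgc
HSPA5: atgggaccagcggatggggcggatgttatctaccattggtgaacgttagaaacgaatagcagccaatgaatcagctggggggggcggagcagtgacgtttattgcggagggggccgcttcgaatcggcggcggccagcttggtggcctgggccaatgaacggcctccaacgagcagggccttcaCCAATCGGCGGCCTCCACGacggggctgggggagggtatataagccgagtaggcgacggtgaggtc
HSP90B1: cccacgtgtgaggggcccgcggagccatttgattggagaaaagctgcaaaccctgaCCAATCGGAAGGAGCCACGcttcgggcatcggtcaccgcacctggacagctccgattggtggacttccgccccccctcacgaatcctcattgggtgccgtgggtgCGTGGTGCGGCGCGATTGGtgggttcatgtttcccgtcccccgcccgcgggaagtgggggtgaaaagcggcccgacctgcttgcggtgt
CRELD2: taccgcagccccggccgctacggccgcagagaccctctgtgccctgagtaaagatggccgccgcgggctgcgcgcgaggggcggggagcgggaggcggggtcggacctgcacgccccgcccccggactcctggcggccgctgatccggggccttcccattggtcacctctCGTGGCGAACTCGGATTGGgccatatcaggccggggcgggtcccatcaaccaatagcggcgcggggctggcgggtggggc
CALR: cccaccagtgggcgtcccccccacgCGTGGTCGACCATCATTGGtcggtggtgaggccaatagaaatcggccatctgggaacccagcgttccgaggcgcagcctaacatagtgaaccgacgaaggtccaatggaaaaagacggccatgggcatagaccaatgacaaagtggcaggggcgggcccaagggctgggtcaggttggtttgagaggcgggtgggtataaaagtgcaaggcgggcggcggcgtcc
CANX: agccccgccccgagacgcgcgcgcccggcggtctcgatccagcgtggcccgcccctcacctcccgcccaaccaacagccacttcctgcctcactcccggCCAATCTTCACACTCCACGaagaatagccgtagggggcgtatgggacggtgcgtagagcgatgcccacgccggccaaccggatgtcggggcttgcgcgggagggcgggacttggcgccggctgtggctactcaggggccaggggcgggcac
HSP90B1 carries 2 matches, 1 on each strand, and the others 1. The HSPA5 match lies nearest the start, at bases -66 to -48, and the CALR match farthest from it, at -225 to -207. Of the 10 members with an ERSE, ERSE-II or UPRE in the window, 7 were higher and 0 lower at 6 h, with a median log2 fold change of 0.43. Of the 22 without, 9 were higher and 4 lower, with a median of 0.15. MANF, DNAJB11, PDIA4 and PDIA6 were higher without such a match, and XBP1, HYOU1 and ERO1B have a match and did not pass. Windows of this length miss elements elsewhere, and a match is a description of the letters only. The members were named as genes of this response, so an excess of its known elements over all promoters could be foreseen and is no test.

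At 3 h few members had moved. At pH 6.0, 4 of 35 members were higher and 4 lower than at pH 7.4, which is 22.9% of members against 18.8% of all genes tested (9.53% higher and 9.26% lower). The median log2 fold change of the members was -0.01, and that of all genes tested -0.00. Of the folding genes, only CANX (higher) and CRELD2 (lower) passed. The number of lower members was 2 without replicate 1 of pH 7.4 or replicate 2 or 3 of pH 6.0 and 7 without replicate 1 of pH 6.0, all at 3 h. Without low-count filtering it was 9.

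Of the 8 calls at 3 h, 4 were on sensors or factors. ATF6 was higher at pH 6.0, at 65.0, 74.2 and 66.5 CPM against 49.6, 49.9 and 49.9 CPM (log2 0.46 ± 0.08, adjusted p = 0.000524). CREB3L2, which activates secretory pathway genes, was at 37.4, 49.4 and 40.8 CPM against 24.8, 32.9 and 29.1 CPM (log2 0.56 ± 0.12, adjusted p = 0.00335). XBP1 was lower, at 199, 187 and 191 CPM against 270.2, 238 and 276 CPM (log2 -0.44 ± 0.07, adjusted p = 0.000267). The groups of these 3 genes did not overlap. EIF2AK3 was at 19.7, 21.5 and 21.2 CPM against 25.4, 30.3 and 25.3 CPM (log2 -0.37 ± 0.11, adjusted p = 0.0172), but did not pass without replicate 2 of pH 7.4 at 3 h (adjusted p = 0.0709). SEL1L was at 201, 230.1 and 222 CPM against 143, 194 and 160.5 CPM (log2 0.39 ± 0.09, adjusted p = 0.00509), and its partner SYVN1 at 38.5, 41.2 and 38.9 CPM against 47.6, 48.6 and 46.6 CPM (log2 -0.27 ± 0.09, adjusted p = 0.0455). The SYVN1 call was marginal. It was lost without any 1 of the 6 libraries of 3 h, replicate 1 of pH 7.4 at 6 h or replicates 2 and 3 of pH 6.0 at 6 h (adjusted p = 0.0505 to 0.132). Median-of-ratios factors (0.0505), the filter of 5 CPM (0.0652) and a fit of only the groups compared (0.0709) also lost it. CANX was at 1535, 1849.7 and 1689.5 CPM against 1243, 1366 and 1395 CPM (log2 0.34 ± 0.09, adjusted p = 0.0112). CANX lost its call without replicate 1 of pH 7.4 (0.0579) or replicate 2 of pH 6.0 (0.0709) at 3 h. CRELD2 (log2 -0.38 ± 0.12, adjusted p = 0.0255) lost it without replicate 1 or 3 of pH 7.4 (0.115 and 0.0565) or replicate 2 or 3 of pH 6.0 (0.146 and 0.0898) at 3 h, and with only the groups compared in the fit (0.0592).

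Not passing at 3 h were ERN1 (log2 -0.27 ± 0.14, 16.5 to 24.1 CPM at pH 7.4 and 15.4 to 18.0 CPM at pH 6.0), ATF6B (-0.01 ± 0.09) and CREB3 (-0.28 ± 0.10, adjusted p = 0.0505). CREB3 passed with total counts (0.0281), no filter (0.0319) and the replicate block (0.0398), and without replicate 2 of pH 7.4 at 3 h (0.0238), replicate 3 of pH 7.4 at 6 h (0.0485) or replicate 1 of pH 6.0 at 3 h (0.0119). HSPA5 was at 831, 912 and 939 CPM at pH 7.4 and at 939, 968 and 962 CPM at pH 6.0 (log2 0.10 ± 0.08, adjusted p = 0.442). HERPUD1 was at 105, 104 and 101 CPM against 97.6, 94.1 and 96.5 CPM (log2 -0.10 ± 0.07, adjusted p = 0.346). Neither of these genes, which had the highest fold changes at 6 h, passed at 3 h. The libraries of the 2 pH values did not overlap in either, which with 3 libraries per group is no test.

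The test of the interaction asked whether the effect of pH differed between 6 h and 3 h. It passed for 18 of 35 members (51.4%) against 29.4% of all genes tested (13.1% more positive, 16.3% more negative), with 14 more positive at 6 h and 4 more negative. The difference between the effects was highest for HERPUD1 (log2 1.23 ± 0.11, adjusted p = 8.29e-08), followed by SDF2L1 (1.20 ± 0.29, adjusted p = 0.00911) and SEC61B (1.09 ± 0.22, adjusted p = 0.00123). It was 0.92 ± 0.12 for HSPA5 (adjusted p = 1.02e-05) and -1.14 ± 0.19 for ERN1 (adjusted p = 0.000223). Thus 8 of 11 chaperones and 3 of 5 disulfide enzymes had a more positive effect of pH at 6 h, and no gene of either class a more negative one. For ATF6, which was higher at pH 6.0 at both times, the difference was -0.12 ± 0.12, with an adjusted p of 0.495. EIF2AK3, lower at both times, gave 0.02 ± 0.15 (adjusted p = 0.929).

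The pH effect at 6 h can be split into the change over time at each pH. These comparisons share their groups with those above, so they restate the same levels and are no separate evidence. At pH 7.4, 6 members rose and 9 fell between 3 h and 6 h, 42.9% of members against 31.6% of all genes tested (17.2% higher and 14.4% lower). At pH 6.0, 10 rose and 1 fell, 31.4% against 19.5% (8.64% higher and 10.9% lower). The 6 that rose at pH 7.4 became 3 without replicate 1 or 3 of pH 7.4 at 3 h or replicate 3 of pH 7.4 at 6 h, and the 10 at pH 6.0 became 5 without replicate 3 of pH 6.0 at 3 h. With total counts in place of TMM scaling, 5 rose and 2 fell at pH 6.0, and the median of all genes tested there moved from -0.02 to -0.10. That scaling also moved the share of all changed genes that were higher, from 54.5% to 39.7% at pH 7.4 and from 44.3% to 23.6% at pH 6.0, and from 50.7% to 40.5% for pH at 3 h. The length correction moved it to 60.8% for time at pH 6.0 and from 44.6% to 57.5% for the interaction.

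**Figure D3:**
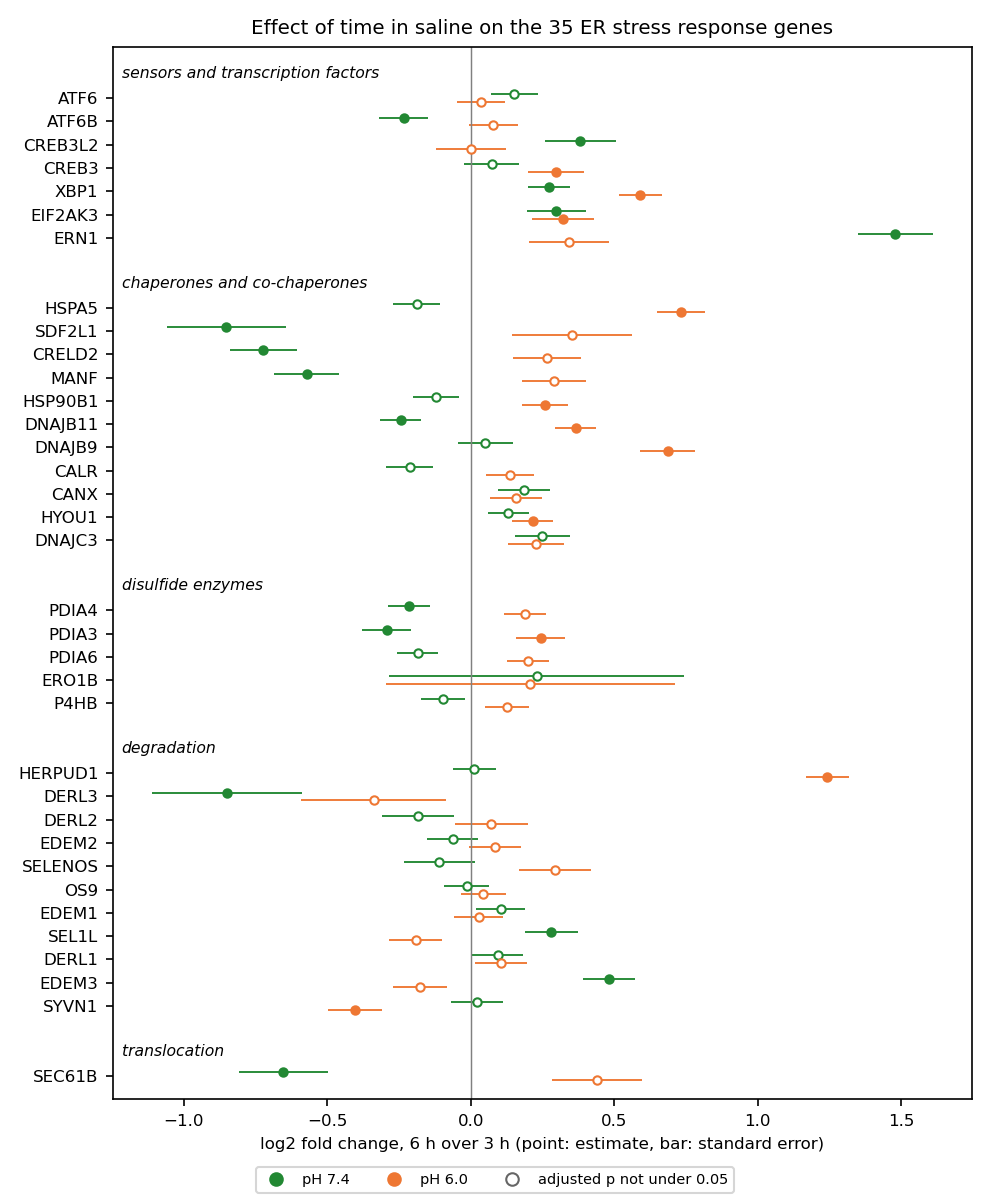
Log2 fold change of each of the 35 members for 6 h against 3 h at pH 7.4 and at pH 6.0, with bars of 1 SE, grouped by role; filled points passed an adjusted p of 0.05. ERN1 lies at 1.48 at pH 7.4 and 0.34 at pH 6.0, and HERPUD1 at 0.01 and 1.24.

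HERPUD1, SEC61B and some of the folding genes are given here with their change over time at each pH. HERPUD1 rose with time at pH 6.0 (log2 1.24 ± 0.08, adjusted p = 4.32e-11), with 0.01 ± 0.07 at pH 7.4. HSPA5 rose at pH 6.0 (0.73 ± 0.08, adjusted p = 1.01e-06), with -0.19 ± 0.08 at pH 7.4 (adjusted p = 0.089). It passed as lower at pH 7.4 with total counts (-0.26, adjusted p = 0.0165), no filter (0.0461) and the length correction (0.0369). DNAJB9 rose at pH 6.0 by 0.69 ± 0.10 (adjusted p = 1.62e-05), with 0.05 at pH 7.4. MANF, CRELD2 and SEC61B passed as lower with time at pH 7.4. Their log2 fold changes there were -0.57 ± 0.11, -0.72 ± 0.12 and -0.65 ± 0.16 (adjusted p = 0.000566, 7.56e-05 and 0.00355). At pH 6.0 the same genes had 0.29 ± 0.11, 0.27 ± 0.12 and 0.44 ± 0.16, none of which passed as fitted (adjusted p = 0.0731, 0.118 and 0.0526). SEC61B passed as higher there in 12 of the 20 alternatives (adjusted p = 0.00399 to 0.0486), among them those without replicate 1 or 3 of pH 7.4 at 3 h, 2 or 3 of pH 7.4 at 6 h, 1 of pH 6.0 at 3 h or 1 of pH 6.0 at 6 h. MANF passed with no filter (0.0299), with the length correction (0.0291) and without replicate 1 of pH 6.0 at 3 h (0.0352) or at 6 h (0.0493), and CRELD2 without replicate 1 of pH 6.0 at 3 h (0.0222). DNAJB11 passed in both, at -0.24 ± 0.07 at pH 7.4 and 0.37 ± 0.07 at pH 6.0 (adjusted p = 0.0112 and 0.000723). CALR and PDIA6 passed at neither pH as fitted, but did so in several alternatives. With DESeq2 both were lower at pH 7.4 (adjusted p = 0.0299 and 0.0212). PDIA6 and PDIA4 were higher at pH 6.0 with DESeq2 (0.00663 and 0.00633).

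Of the members lower at pH 6.0 after 6 h, ERN1 rose with time at pH 7.4 from 16.5, 24.1 and 20.7 CPM to 49.8, 60.0 and 60.3 CPM (log2 1.48 ± 0.13, adjusted p = 6.23e-08). At pH 6.0 it went from 15.4, 18.0 and 17.3 CPM to 19.9, 25.3 and 18.6 CPM (0.34 ± 0.14, adjusted p = 0.0928). This smaller rise passed with no filter (0.0274), with the length correction (0.0237), with the replicate block (0.0365) and without replicate 1 of pH 7.4 at 3 h (0.044). EDEM3 rose at pH 7.4 (0.48 ± 0.09, adjusted p = 0.000395) from 39.5 to 43.6 CPM at 3 h to 53.8 to 61.2 CPM at 6 h, and had -0.18 at pH 6.0 (adjusted p = 0.195). SYVN1, by contrast, fell at pH 6.0 (-0.40 ± 0.10, adjusted p = 0.00455, or 0.0536 without replicate 1 of pH 6.0 at 6 h), with 0.02 at pH 7.4. XBP1 rose at both pH values, by 0.27 ± 0.07 at pH 7.4 and 0.59 ± 0.07 at pH 6.0 (adjusted p = 0.00755 and 4.63e-06). The remaining members that passed with time had weaker calls, each lost in at least 1 alternative. At pH 7.4 they were EIF2AK3, CREB3L2 and SEL1L (higher) and ATF6B, SDF2L1, PDIA3, PDIA4 and DERL3 (lower), and at pH 6.0 EIF2AK3, CREB3, HSP90B1, HYOU1 and PDIA3 (higher). Without replicate 2 of pH 7.4 at 6 h, EIF2AK3, ATF6B and PDIA4 lost their call at pH 7.4 (adjusted p = 0.0581, 0.131 and 0.0986). PDIA3 then lost its call at pH 6.0 (0.0504), and DNAJC3 passed as higher at pH 7.4 (0.0469).

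Genes of the same compartment outside the member list were counted at 6 h from lists drawn up by function. Of 36 tested other folding genes, 19 were higher and 2 lower at pH 6.0 (median log2 fold change 0.24). Higher were the cyclophilin PPIB (0.54) and the thiol quality-control protein ERP44 (0.47), and lower were the immunophilin FKBP11 (-0.82) and CNPY2 (-1.25). Of 27 translocation and glycosylation genes, 16 were higher and 2 lower (median 0.35), among them the oligosaccharyltransferase subunit RPN2 (0.56) and the signal peptidase subunit SPCS1 (0.85), against TRAM1 (-0.64) and SEC62 (-0.54). Of 22 genes of COPII transport out of the ER, 12 were higher and 5 lower (median 0.25), with the cargo receptor TMED10 at 0.42 and the scaffold SEC16A at -0.65. The 5 lower became 3 without replicate 1 of pH 7.4 at 6 h, 2 without replicate 2 of pH 6.0 at 6 h and 1 with the length correction. The 30 other degradation genes split into 8 higher and 9 lower (median -0.01), with SELENOK at 0.96, UBQLN1 at 0.48, NPLOC4 at -0.70 and RNF185 at -0.83. All of these are to be read against the 21.9% higher and 25.1% lower over all genes tested. Of 10 genes for ATF6 and CREB3 processing and their partners, 3 were higher and 1 lower. The 1 lower became 0 without replicate 2 or 3 of pH 6.0 at 6 h and with the length correction. It became 2 with total counts, with only the groups compared and without replicate 2 or 3 of pH 6.0 at 3 h. Of 6 ER-phagy receptors, which mark ER for autophagy, 1 was higher and 3 lower.

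**Figure D4:**
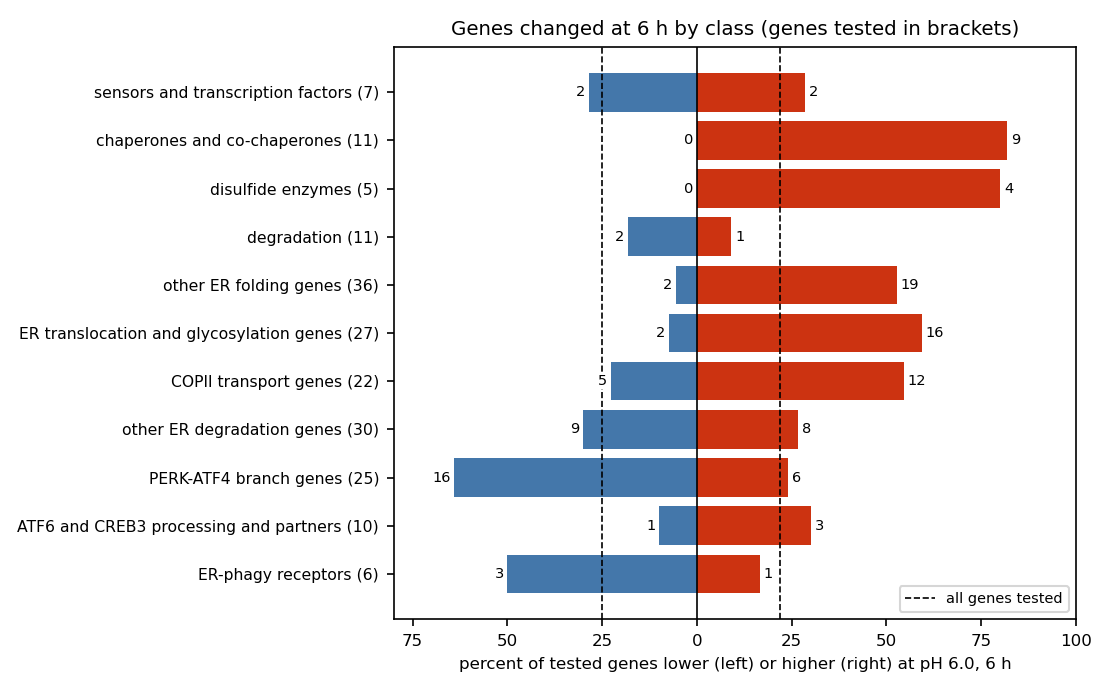
Percent of tested genes that were lower (bars to the left) or higher (to the right) at pH 6.0 than at pH 7.4 after 6 h, for 4 member classes and the related lists, with the number of genes at the end of each bar; dashed lines mark all genes tested (25.1% lower, 21.9% higher). The chaperones (9 of 11 higher) and disulfide enzymes (4 of 5) reach farthest to the right, and the PERK-ATF4 branch (16 of 25 lower) farthest to the left.

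The PERK-ATF4 branch, whose targets govern amino acid supply and the recovery of translation, stood apart from the folding genes in its counts, with 6 of 25 genes higher and 16 lower at 6 h (median -0.37). The branch is a list by function. PERK activity was not measured, and whether PERK was behind these values was not tested. PPP1R15A, which encodes the phosphatase subunit that reverses PERK's block of translation, was higher (log2 1.26 ± 0.08, adjusted p = 1.69e-11), and the cystine transporter SLC7A11 was lower (-1.63 ± 0.11, adjusted p = 3.31e-10). DDIT3, which encodes the stress factor CHOP and was singled out after its values were seen, was lower at pH 6.0 at 3 h (-0.66 ± 0.12, adjusted p = 0.000531) and higher at 6 h (0.63 ± 0.11, adjusted p = 8.86e-05). Its interaction was 1.29 ± 0.16 (adjusted p = 9.43e-06). At 3 h the branch had 3 genes higher and 15 lower, where 9.53% of all genes tested were higher and 9.26% lower. With time 16 of the 25 genes rose and 0 fell, at pH 7.4 and also at pH 6.0. Of all genes tested 17.2% rose and 14.4% fell at pH 7.4, and 8.64% and 10.9% at pH 6.0. The summed level of the branch went from 4627 to 6624 CPM at pH 7.4 and from 3583 to 5321 CPM at pH 6.0.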

How the data were processed

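RNA-seq was analysed for 12 T84 libraries, 3 per group of pH and time. Read counts per Ensembl gene were deposited by the authors in 1 table of the whole series. The deposited tables per library hold the same counts with a second value, which the files do not name and which from its values is RPKM. STAR, CASAVA and hg19 are listed per the submitters' processing notes, while versions, annotation, counter and strandedness were not given in the sources used here. RPKM was used only to compare levels between genes, and every test used the counts.

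Genes were tested with edgeR 4.0.16 in R 4.3.3 (TMM factors, default expression filter, robust two-sided quasi-likelihood F tests) with the 4 groups of 3 libraries in a single fit (8 residual degrees of freedom), and p-values were adjusted by Benjamini-Hochberg over the 15630 genes tested. A gene passed at an adjusted p under 0.05. The SE of a log2 fold change is its size over the square root of F. CPM values use TMM-scaled totals. The common biological coefficient of variation was 9.29%. Counts of the 12 pairs of libraries within groups differed beyond sampling noise (chi-square over its degrees of freedom, 5.40 to 19.5). Genes without a symbol took about 1% of counts. Symbols came from names tables, RefSeq and GENCODE 29 (on GRCh38, another build than the authors'), which served for names, exon overlaps and the check of promoter starts only. The procedure was tested on simulated counts.

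The members and lists were chosen with earlier results of these data known. Values per library are given for all sensors, and in each other class for up to 4 members with the smallest p for pH at 6 h and for members whose interaction passed. From each related list up to 2 higher and 2 lower genes are named, in part only. GTF2I and PECAM1 matched no identifier.

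Alternatives were DESeq2 1.42.0, median-of-ratios factors, total counts, no filter, a fit restricted to the groups in question, the replicate number as a block, a filter of 5 CPM in 3 libraries, a correction for gene length, and each library left out in turn.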

Additional observations from a re-analysis of the deposited data

Results flagged for a closer look

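For 18 of 35 members (51.4%) the effect of pH differed between 6 h and 3 h, by edgeR's test of the interaction. Of all genes tested 29.4% passed. The effect also differed for the 4 related genes DDIT3, ERN2, AGR2 and AGR3, which were singled out after their values were seen. Other genes of the related lists passed too and are not listed. Of the 25 genes of the PERK-ATF4 branch, for example, 6 were more positive and 7 more negative. Over all genes tested 13.1% were more positive and 16.3% more negative. The values are the log2 effect of pH at 6 h minus that at 3 h. Among the chaperones it was 1.20 for SDF2L1, 0.99 for CRELD2, 0.92 for HSPA5, 0.86 for MANF, 0.63 for DNAJB9, 0.61 for DNAJB11, 0.38 for HSP90B1 and 0.35 for CALR. The disulfide isomerases gave 0.54 for PDIA3, 0.41 for PDIA4 and 0.39 for PDIA6, and SEC61B gave 1.09. The degradation genes went both ways, with 1.23 for HERPUD1, -0.43 for SYVN1, -0.47 for SEL1L and -0.66 for EDEM3. The sensor ERN1 stood at -1.14 and XBP1 at 0.32. DDIT3 gave 1.29, and the gut genes AGR3, AGR2 and ERN2 gave 1.45, 0.60 and -0.66.

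5 of these members did not pass throughout. XBP1 had an adjusted p of 0.152 with the length correction, and of 0.0528, 0.0504, 0.0593 and 0.061 without replicate 1 of pH 7.4 at 3 h, replicate 3 of pH 7.4 at 6 h and replicates 2 and 3 of pH 6.0 at 3 h. CALR had 0.204 with the length correction, and 0.0501 and 0.0594 without replicate 2 of pH 7.4 at 6 h and replicate 3 of pH 6.0 at 6 h. SYVN1 had 0.148 with the length correction, 0.0513 with no filter, and 0.063, 0.0761 and 0.0929 without replicate 3 of pH 7.4 at 3 h, replicate 2 of pH 7.4 at 6 h and replicate 1 of pH 6.0 at 6 h. SEL1L and EDEM3 lost the call with the length correction only, at 0.68 and 0.0687. In turn, 5 members that did not pass as fitted passed in some alternative. ATF6B did so with DESeq2 (0.0413), no filter (0.0412) and the filter of 5 CPM (0.0427). It also passed (0.0246 to 0.0296) without replicate 1 of pH 6.0 at either time or replicate 2 at 6 h. HYOU1 passed with the length correction (0.0413). CREB3 passed without replicate 1 of pH 6.0 at 3 h (0.0468), and CREB3L2 without replicate 2 of pH 7.4 at 3 h (0.0394). SELENOS is given above.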

How the results depend on the processing

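Of the members that passed, 18 of 21 for pH at 6 h kept their call in all 20 alternatives, as did 4 of 8 for pH at 3 h, 7 of 15 for time at pH 7.4 and 5 of 11 for time at pH 6.0. For the interaction 13 of 18 kept it in all 19, since the fit of only the groups compared cannot give it. Members higher and lower numbered 9 lower with no filter and 2 lower with only the groups compared for pH at 3 h (4 lower in the fit reported). For time at pH 7.4 they numbered 3 higher with total counts and 3 with the length correction (6 reported). For time at pH 6.0 they numbered 5 higher and 2 lower with total counts and 18 higher with the length correction (10 and 1 reported), and for the interaction 1 lower with the length correction (4 reported). Over all genes, time at pH 6.0 had 773 higher with total counts and 2229 with the length correction (1351 reported), and the interaction 1515 lower with the length correction (2541 reported). With the length correction SEL1L became 0.19 for pH at 6 h and -0.0063 for time at pH 7.4, and the factor gene YY1 became 0.0046 for pH at 6 h; the cause was not tested.

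With 1 library left out, members higher and lower ranged from 3 to 4 and 2 to 7 for pH at 3 h, 16 to 18 and 3 to 4 for pH at 6 h, 3 to 7 and 6 to 11 for time at pH 7.4, 5 to 15 and 0 to 1 for time at pH 6.0, and 13 to 17 and 3 to 5 for the interaction. All genes higher and lower ranged from 758 to 1776 and 832 to 1841, 2807 to 3899 and 3236 to 3973, 2038 to 2757 and 1271 to 2562, 801 to 1898 and 1090 to 1739, and 1479 to 2647 and 1970 to 2681 in the same order. The counts for pH at 3 h were lowest without replicate 1 of pH 7.4 (779 and 882), replicate 2 (758 and 891) or replicate 3 (816 and 832) of pH 6.0, all at 3 h.

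Whether equal replicate numbers mark paired libraries is not stated. Deviations of same-numbered libraries correlated from -0.0538 to 0.226, and for pH at 3 h at 0.226, 0.0902 and 0.0452. Those of differently numbered libraries correlated from -0.19 to 0.144. With 3 libraries per group these values cannot decide whether the libraries were paired, and the fit reported used no pairing. With the replicate number as a block, 17 members were higher and 4 lower for pH at 6 h. The block added the calls of ERN1 and SEC61B for time at pH 6.0 (0.0365 and 0.0468), CREB3 for pH at 3 h (0.0398), and CALR and DNAJC3 for time at pH 7.4 (0.0449 and 0.0354), and changed no other member's call. Precision is limited by depth for ERO1B and DERL3.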

Other observations

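Genes of the gut's own ER, also singled out after their values were seen, moved in both directions at 6 h. ERN2, the IRE1 gene of mucous epithelia, was at 70.6, 74.3 and 69.8 CPM at pH 7.4 and at 38.2, 34.0 and 45.3 CPM at pH 6.0 (log2 -0.87 ± 0.10, adjusted p = 2.12e-07). No library of either pH lay in the range of the other. Over time ERN2 rose at pH 7.4 (0.39 ± 0.10, adjusted p = 0.00346), with -0.27 ± 0.10 at pH 6.0 (adjusted p = 0.0596), which passed with total counts (0.0125), with the filter of 5 CPM (0.0489) and without replicate 3 of pH 6.0 at 6 h (0.0177). ERN2 and ERN1 encode related sensors and both were lower at pH 6.0 after 6 h. The disulfide isomerase AGR2, needed for mucin production, was higher at pH 6.0 (0.52 ± 0.11, adjusted p = 0.000366), and so was its relative AGR3 (1.40 ± 0.24, adjusted p = 6.47e-05).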
